A study of Zea mays with 20 samples.

Results

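GIF1 (GRMZM2G180246) and the growth-regulating factors GRF2 (GRMZM2G099862), GRF3 (GRMZM2G105335), GRF12 (GRMZM2G119359) and GRF14 (GRMZM2G098594) are 5 of the 39656 genes counted in 20 maize RNA-seq libraries. They were chosen by gene ID, with results from the leaf libraries already known, so every comparison of theirs that involves leaf is given as a description with no test. Young leaves were wild type (+/+), or heterozygous (Kn1-N/+) or homozygous (Kn1-N/Kn1-N) for Kn1-N, a dominant gain-of-function allele of KNOTTED1 (kn1), with 2 libraries per genotype. Tassel primordia (3 libraries per genotype), ear primordia (2) and shoot apical meristems (SAM; 2) came from homozygotes of the loss-of-function allele kn1-e1 and from their siblings. These siblings are wild type by title but kn1-e1/+ by genotype label, and the series' design allows both, so a sibling may carry 1 mutant allele. All plants were of inbred background B73.

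Leaf samples were tubes 7 to 8 mm long and 1 to 2 mm wide, cut 2 to 3 mm above the SAM of greenhouse plants aged 10 days. SAM samples were pools of 15 apices of greenhouse plants aged 19 days. Tassels and ears came from the field. Pools of 10 tassels measured 2 to 3 mm in kn1-e1 and 4 to 5.5 mm in siblings, and pools of 6 to 8 ears measured 4 to 5 mm in kn1-e1 and 7 to 8 mm in siblings. Organ size and genotype therefore cannot be told apart in tassel and ear. In whole organs, fewer cells that express a gene cannot be told apart from less RNA per cell.

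Growth-regulating factors are plant transcription factors that bind DNA through a WRC domain and bind their partners through a QLQ domain. The partners are the GRF-interacting factors (GIFs), coactivators without a DNA-binding domain of their own that bring chromatin remodelling complexes to GRF targets; GIF1 is the counterpart of Arabidopsis ANGUSTIFOLIA3. In Arabidopsis the GRF-GIF pair keeps cells of young leaves dividing, and a conserved microRNA limits many GRF transcripts. KNOTTED1 is a KNOX homeobox protein that keeps cells of the shoot meristem undifferentiated and is normally absent from leaves, and dominant Kn1 alleles cause knots of extra tissue along leaf veins.

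Libraries held 16068246 to 20722952 counts, and the 5 genes had 203 to 14899 counts in each. Levels are in CPM, a gene's count relative to its library's total, adjusted by TMM factors over all 20 libraries so that depth cancels. The green-leaf list summed to 1005 to 1255 CPM in leaf libraries and 41.6 to 90.8 CPM in all others. Not every gene of the list was highest in leaf. Pep1 (GRMZM5G899080) averaged 8.17 CPM in wild-type leaves, 42.3 CPM in sibling SAMs and 24.1 CPM in sibling tassels. C4ppdkZm1 (GRMZM2G306345) averaged 14.7 CPM in wild-type leaves, 11.8 CPM in sibling SAMs and 28.2 CPM in sibling tassels. The kn1 transcript followed the labels. In leaf it had 0 to 1 count in wild-type libraries, 103 to 126 counts in heterozygous libraries and 162 to 223 counts in homozygous libraries. It averaged 45.2 ± 10.7 CPM in kn1-e1 tassels and 198 ± 12.3 CPM in sibling tassels (SD, n = 3 each), 33.0 ± 0.0739 CPM in kn1-e1 ears and 131 ± 6.37 CPM in sibling ears (SD, n = 2 each), and 10.8 ± 1.34 CPM in kn1-e1 SAMs and 34.2 ± 2.70 CPM in sibling SAMs (SD, n = 2 each). The 2 sibling SAM libraries differed from each other more than any other replicate pair, with a chi-square per degree of freedom of 12.3 over genes, against 1.83 to 5.50 in the other pairs.

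GIF1, the coactivator, stood higher in Kn1-N leaves at each dose. It had 32.7 and 33.2 CPM in wild-type leaves, 46.8 and 54.4 CPM in heterozygous leaves and 74.3 and 76.5 CPM in homozygous leaves. No library of one genotype overlapped with those of the next, but the share of all genes that separated so is not given here. The homozygous level was 2.31 times the wild-type level (log2 1.21 ± 0.08, SE), and the heterozygous level was 1.54 times the wild-type level (log2 0.63 ± 0.08). Measured in CPM, the gain in heterozygotes was 41.6% of the gain in homozygotes.

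Of the 4 GRFs chosen, GRF12 had the largest fold between homozygous and wild-type leaves, while GRF2 gained more in CPM (19.1 CPM for GRF2 and 14.3 CPM for GRF12). GRF12 had 15.3 and 18.3 CPM in wild-type leaves, 22.5 and 26.2 CPM in heterozygous leaves and 29.997 and 32.1 CPM in homozygous leaves. The 3 genotypes did not overlap, again with no share over all genes given. The homozygous level was 1.87 times the wild-type level (log2 0.91 ± 0.11). GRF2 had 31.4 and 31.8 CPM in wild-type leaves, 37.3 and 43.2 CPM in heterozygous leaves and 49.3 and 52.1 CPM in homozygous leaves. It too stood in the order of dose, and its homozygous level was 1.62 times the wild-type level (log2 0.70 ± 0.08).

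GRF14 had 10.9 and 11.6 CPM in wild-type leaves, 11.9 and 14.9 CPM in heterozygous leaves and 19.2 and 19.6 CPM in homozygous leaves. Its homozygous level was 1.74 times the wild-type level (log2 0.80 ± 0.12), while heterozygotes differed from wild type by a log2 of 0.26 ± 0.12, which was 0.42 without heterozygous library 1 and 0.079 without heterozygous library 2. GRF3 had 30.6 and 32.7 CPM in wild-type leaves, 29.2 and 29.8 CPM in heterozygous leaves and 38.2 and 40.6 CPM in homozygous leaves. Among the 5 genes, GRF3 was the exception to the order of dose, since both heterozygous libraries lay below both wild-type libraries (log2 -0.09 ± 0.08) and only the homozygotes lay above (log2 0.33 ± 0.08). The heterozygous gain was 52.9% of the homozygous gain for GRF12, 45.0% for GRF2 and 26.6% for GRF14, with the same dependence of GRF14 on the heterozygous library. Homozygous over heterozygous leaves, the log2 differences were 0.58 ± 0.08 for GIF1, 0.54 ± 0.12 for GRF14, 0.43 ± 0.08 for GRF3, 0.36 ± 0.10 for GRF12 and 0.34 ± 0.08 for GRF2. The leaf comparisons share libraries with each other.

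**Figure D1:**
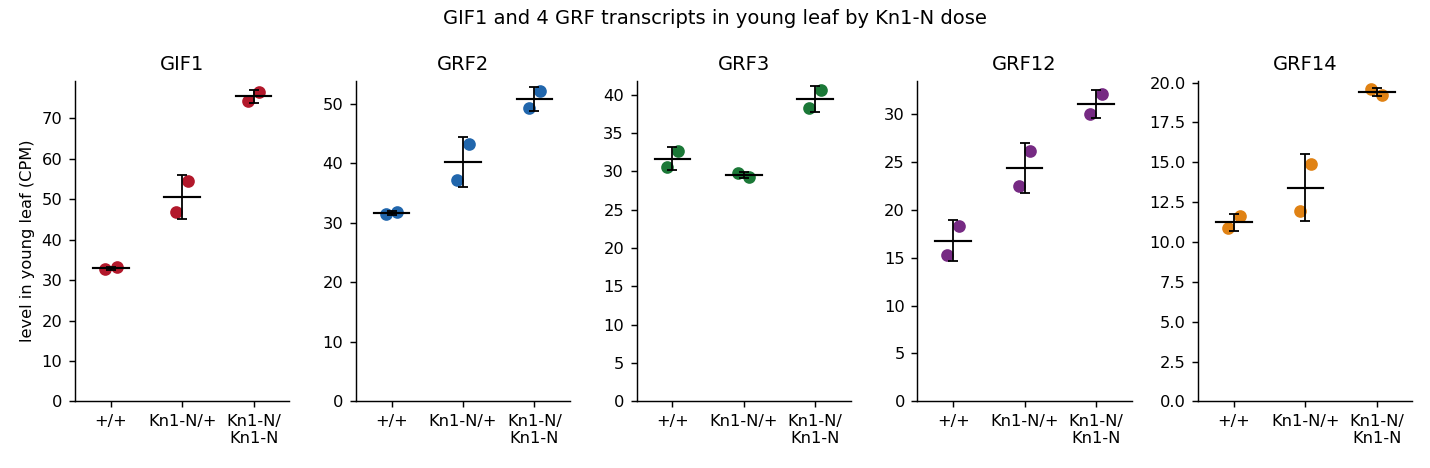
Level in young leaf in CPM (vertical axes, 1 scale per gene, starting at 0) for 3 Kn1-N genotypes; points are libraries, the line is the mean and bars are the SD (n = 2). GIF1 stands at 32.7 to 33.2 CPM in wild type and 74.3 to 76.5 CPM in homozygotes, and GRF3 is the gene whose heterozygous libraries lie below wild type.

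Homozygous leaves did not reach the level of the SAM for any of the 5 genes. As a share of the sibling SAM mean, GIF1 stood at 13.4% in homozygous leaves and 5.87% in wild-type leaves. GRF12 stood at 22.2% in homozygous leaves and 12.0% in wild-type leaves. GRF2, GRF3 and GRF14 stood at 51.2%, 48.5% and 49.2% in homozygous leaves, and at 31.9%, 38.9% and 28.6% in wild-type leaves. Of 17 tested genes of dividing cells (cyclins, CDKs, MCM proteins, PCNA and histone H4), 4 rose and 1 fell in homozygous leaves, where 9.16% of all genes rose and 9.59% fell, and their sum was 2310 to 2342 CPM in homozygous leaves and 2157 to 2168 CPM in wild-type leaves. Their part in the values of the 5 genes was not tested. The 18 tested green-leaf genes held 1 that rose and 2 that fell.

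GIF1 counts were set against the summed counts of the 4 GRFs in each library, as a description. This ratio compares libraries only, because transcript lengths differ between genes. It was 0.351 to 0.371 in wild-type leaves, 0.461 to 0.480 in heterozygous leaves and 0.531 to 0.542 in homozygous leaves. Tassels had 2.09 to 2.20 in kn1-e1 plants against 1.91 to 2.04 in siblings, and SAMs had 1.65 to 1.69 in kn1-e1 plants against 1.53 to 1.59 in siblings. Ears had 0.988 to 0.991 in kn1-e1 plants against 0.843 to 0.989 in siblings, which overlapped. The ratio thus stood higher with each Kn1-N dose, and higher in kn1-e1 than in sibling tassels and SAMs, but it was not tested. A higher ratio need not mean more GIF1. GIF1 itself averaged 533 CPM in kn1-e1 SAMs and 561 CPM in sibling SAMs, and 727 CPM in kn1-e1 tassels and 697 CPM in sibling tassels.

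In tassels without normal kn1, none of the 5 genes passed the test (edgeR's quasi-likelihood test, called at a p under 0.05 after Benjamini-Hochberg adjustment across the table), where 7.9% of all genes did. At an unadjusted p under 0.05, 1 of the 5 passed, and DESeq2 called 0. GIF1 had 694, 743 and 744 CPM in kn1-e1 tassels and 677, 706 and 707 CPM in sibling tassels (log2 0.07 ± 0.04, 95% interval -0.01 to 0.15, adjusted p = 0.32 by edgeR). GRF2 had 130, 142 and 147 CPM in kn1-e1 tassels and 147, 153 and 159 CPM in sibling tassels (log2 -0.12 ± 0.05, interval -0.23 to -0.01, adjusted p = 0.17 by edgeR). The groups overlapped for both. GRF12 had 70.4, 71.2 and 71.5 CPM in kn1-e1 tassels and 72.0, 77.1 and 77.9 CPM in sibling tassels, which did not overlap (log2 -0.09 ± 0.04, adjusted p = 0.28 by edgeR). GRF3 and GRF14 differed by 0.05 and -0.06 on the log2 scale and their groups overlapped. The 95% intervals of the 5 genes lay between -0.23 and 0.26.

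In ears the same test called 18.6% of all genes, 10.4% as lower, and GRF2 was the 1 of the 5 called, a share close to that of all genes. It had 183 and 208 CPM in kn1-e1 ears and 224 and 225 CPM in sibling ears (log2 -0.19 ± 0.06, interval -0.32 to -0.06, adjusted p = 0.044 by edgeR). Both kn1-e1 libraries lay below both sibling libraries. The call was lost with DESeq2 (adjusted p = 0.10), with library totals in place of TMM factors (0.13), with all 20 libraries in the fit (0.073), and without kn1-e1 library 1 (0.13), sibling library 1 (0.27) or sibling library 2 (0.25). GIF1 had 453 and 495 CPM in kn1-e1 ears and 461 and 525 CPM in sibling ears, with overlap (log2 -0.05 ± 0.06, adjusted p = 0.65 by edgeR, and log2 0.01 with library totals).

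GRF3, GRF12 and GRF14 lay below their siblings in ears without overlap, but with library totals GRF12 overlapped (94.6 and 103 CPM in kn1-e1 ears, 100.03 and 107 CPM in sibling ears) and the log2 values shrank to -0.091 for GRF3, -0.067 for GRF12 and -0.090 for GRF14. None of them passed with all 4 ear libraries. The share of all genes whose groups did not overlap is not given here for any comparison, so the separation is a description only. GRF3 had 123 and 131 CPM in kn1-e1 ears and 141 and 142 CPM in sibling ears (log2 -0.15 ± 0.05, adjusted p = 0.074 by edgeR). GRF12 had 90.0 and 98.7 CPM in kn1-e1 ears and 100.1 and 107 CPM in sibling ears (log2 -0.12 ± 0.06, adjusted p = 0.19 by edgeR). GRF14 had 60.7 and 62.9 CPM in kn1-e1 ears and 65.7 and 72.2 CPM in sibling ears (log2 -0.15 ± 0.07, adjusted p = 0.14 by edgeR). Values depended on which kn1-e1 ear library was kept. Without library 2 the log2 values were -0.11 for GIF1, -0.19 for GRF3, -0.19 for GRF12 and -0.17 for GRF14. Without library 1 they were 0.013 for GIF1, -0.10 for GRF3, -0.057 for GRF12 and -0.12 for GRF14. Each of these fits rests on 1 kn1-e1 library. In the same ears, where 10.4% of all genes fell, 8 of 17 genes of dividing cells fell. Their sum was 2333 to 2604 CPM in kn1-e1 ears and 3042 to 3051 CPM in sibling ears. Of the floral organ genes, 9 of 9 tested fell, the list of 10 summing to 93.8 to 99.98 CPM in kn1-e1 ears and 272 to 293 CPM in sibling ears. Of 11 tested green-leaf genes, 6 rose and 0 fell, where 18.6% of all genes were called in either direction. The green-leaf sum was 69.9 to 70.002 CPM in kn1-e1 ears and 41.6 to 46.7 CPM in sibling ears. The part of these cells in the GRF values was not tested.

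In SAMs none of the 5 genes passed by edgeR, where 0.164% of all genes did; 2 passed at an unadjusted p under 0.05, and DESeq2 called 0. GRF14 had 30.6 and 32.1 CPM in kn1-e1 SAMs and 36.1 and 42.7 CPM in sibling SAMs (log2 -0.33 ± 0.11, interval -0.58 to -0.09, adjusted p = 0.91 by edgeR). GRF12 had 113 and 118 CPM in kn1-e1 SAMs and 135 and 145 CPM in sibling SAMs (log2 -0.28 ± 0.11, interval -0.52 to -0.03, adjusted p = 0.95 by edgeR). Both kn1-e1 libraries lay below both sibling libraries for these 2 genes, and also for GIF1 and GRF2. That separation is a description only, since the share over all genes is not given. The result turned on the sibling libraries that stood apart: without sibling SAM library 2, GRF14 (-0.45, adjusted p = 0.0018) and GRF12 (-0.33, adjusted p = 0.018) passed by edgeR, in a fit that called 1746 of all genes, against 34 with all 4 libraries. Without sibling SAM library 1, neither passed (adjusted p = 0.66 and 0.52).

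GIF1 in the SAM had 525 and 541 CPM in kn1-e1 and 548 and 574 CPM in siblings (log2 -0.07 ± 0.14, interval -0.37 to 0.23, adjusted p = 0.98 by edgeR). GRF2 had 88.6 and 91.4 CPM in kn1-e1 and 97.2 and 101 CPM in siblings (log2 -0.14 ± 0.11, adjusted p = 0.95 by edgeR). GRF3 had 81.5 and 82.96 CPM in kn1-e1 and 71.7 and 90.9 CPM in siblings, which lay on both sides (log2 0.02 ± 0.12). Differences of the kn1-e1 effect between tissues came from a joint fit of the 14 libraries outside leaf. None of the 15 differences passed by edgeR, where 5.22% of all genes did for ear against tassel, 1.18% for SAM against tassel and 5.47% for SAM against ear. At an unadjusted p under 0.05, 1 of the 15 passed, GRF14 in SAM against tassel (log2 -0.27 ± 0.11, adjusted p = 0.29 by edgeR).

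**Figure D2:**
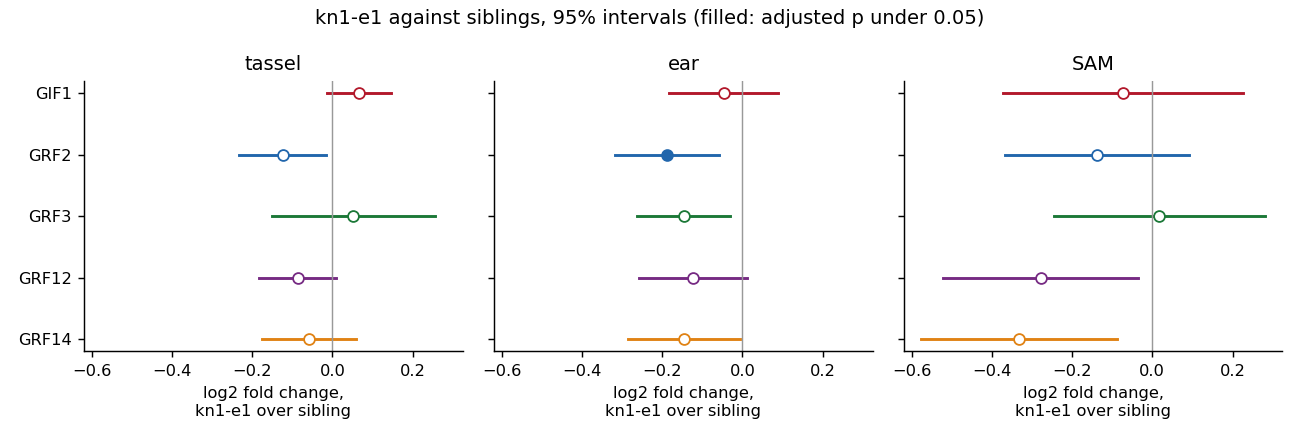
Log2 fold change of kn1-e1 over sibling (horizontal axis) with its 95% interval for each gene in tassel, ear and SAM; a filled point has an adjusted p under 0.05. GRF2 in ear is the 1 filled point, at -0.19, and GRF12 and GRF14 in the SAM have intervals of -0.52 to -0.03 and -0.58 to -0.09 but did not pass after adjustment.

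The control tissues were then set in order for each gene, in 1 fit of all 20 libraries. Tissue is confounded here with growth place, age and the control's genotype label, and the wild-type leaves also serve in the leaf comparisons. Each of the 5 genes was lowest in leaf. Among tassel, SAM and ear, all 15 differences of the 5 genes passed by edgeR, where 55.2% of all genes did between tassel and SAM, 48.8% between ear and SAM and 37.8% between ear and tassel. With library totals the GRF3 difference between tassel and SAM did not pass (log2 0.23, adjusted p = 0.054).

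GIF1 had the widest range. It averaged 697 CPM in sibling tassels, 561 CPM in sibling SAMs, 493 CPM in sibling ears and 32.9 CPM in wild-type leaves. Against leaf it was higher by 4.40 ± 0.09 in tassel, 4.09 ± 0.09 in SAM and 3.90 ± 0.09 in ear, on the log2 scale. GRF12 was highest in the SAM, with 140 CPM, against 104 CPM in ears, 75.7 CPM in tassels and 16.8 CPM in leaves. Its SAM level exceeded the leaf level 8.35-fold (log2 3.06 ± 0.09).

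The other GRFs were highest in the ear. GRF2 averaged 225 CPM in sibling ears, 153 CPM in sibling tassels, 99.1 CPM in sibling SAMs and 31.6 CPM in wild-type leaves. GRF3 had the same order, with 142, 97.6, 81.3 and 31.6 CPM. GRF14 averaged 68.9 CPM in sibling ears, 39.4 CPM in sibling SAMs, 30.02 CPM in sibling tassels and 11.3 CPM in wild-type leaves. By highest tissue, GIF1 was thus led by tassel, GRF12 by SAM, and GRF2, GRF3 and GRF14 by ear. The full order of GRF14 differed from that of GRF2 and GRF3, since its SAM level lay above its tassel level.

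**Figure D3:**
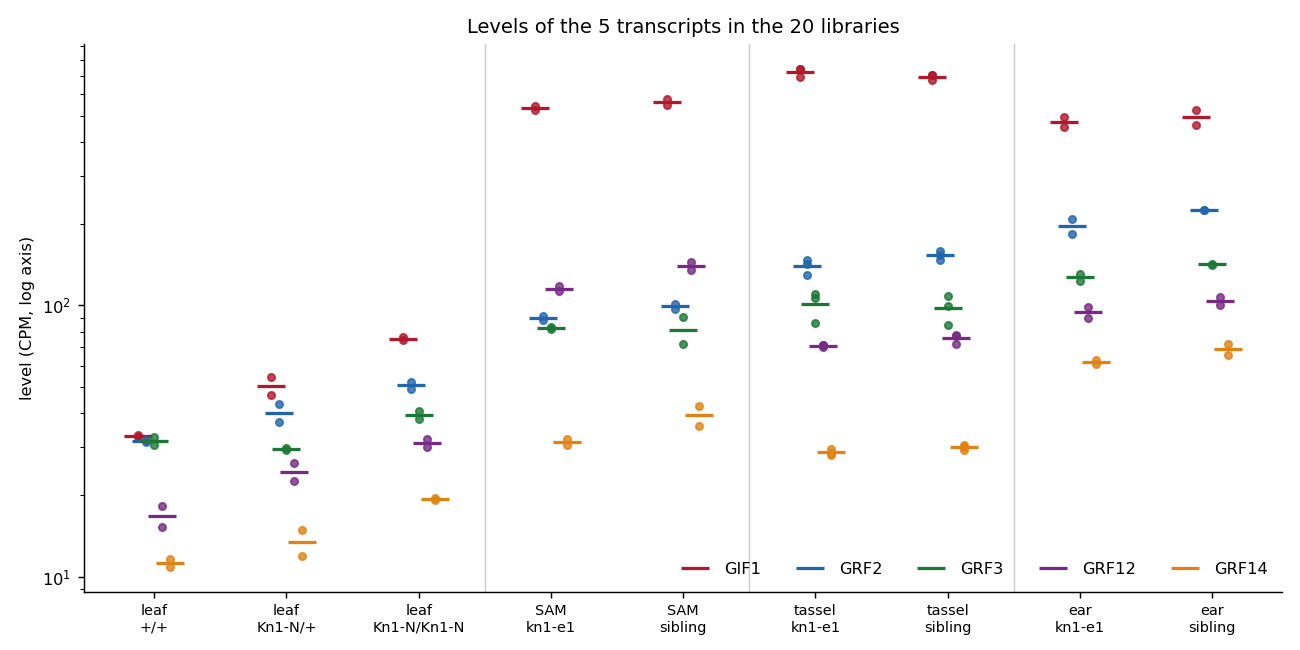
Level in CPM (vertical axis, log scale) of the 5 transcripts in all 20 libraries, by tissue and genotype; points are libraries and bars are group means. GIF1 lies at 32.9 to 75.4 CPM in leaf means and at 474 to 727 CPM in the other groups, and the kn1-e1 and sibling points lie close together in tassel, SAM and ear.

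Likeness between genes is given as Pearson's r of log2 (CPM + 0.5) over the 9 group means, which share tissues and libraries. GRF2 and GRF3 were the most alike of the 5, at 0.983. GIF1 was at 0.936 with GRF12, 0.927 with GRF3, 0.896 with GRF2 and 0.814 with GRF14. Among 20842 genes with a mean of at least 1 CPM, the 3 most like GIF1 were GRMZM2G060834 (GLK47; r = 0.997), GRMZM2G038640 (0.997) and GRMZM2G090736 (0.997). The most like GRF2 were GRMZM2G163683 (0.995) and GRMZM2G161611 (0.994), and the most like GRF3 were GRMZM2G169671 (0.998) and GRMZM2G403190 (0.994). GRF12 was most like GRMZM5G865319 (Serpin-Z1; 0.994) and GRMZM2G134508 (0.994), and GRF14 most like GRMZM2G097989 (gst41; 0.992) and GRMZM2G098056 (0.990).

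The reference names 19 GRF and GIF entries; GIF3 had no row in the count table, and GRF5 (GRMZM2G129147) had 0 counts in all 20 libraries. This leaves 17 tested genes, 12 of them beside the 5. In homozygous leaves 4 of these 12 (beside 9.16% of all genes) rose and 0 fell; their median log2 fold change was 0.20, against 0.007 over all genes. GRF11 (GRMZM2G067743) had 8.00 ± 0.185 CPM in homozygous leaves and 3.92 ± 0.217 CPM in wild-type leaves (SD, n = 2 each), a log2 fold change of 1.04 ± 0.15 (adjusted p = 0.00057 by edgeR). GRF13 (GRMZM2G018414) had 45.7 ± 1.38 CPM in homozygous leaves and 32.8 ± 1.88 CPM in wild-type leaves (log2 0.49 ± 0.09, adjusted p = 0.0028 by edgeR). GRF7 (GRMZM5G850129) had 3.12 ± 0.0194 CPM in homozygous leaves and 1.29 ± 0.531 CPM in wild-type leaves (log2 1.29 ± 0.28, adjusted p = 0.0071 by edgeR), a call lost without homozygous library 2 (0.063) or wild-type library 1 (0.089). GIF2 (GRMZM2G154169), the other coactivator tested, had 26.6 ± 0.969 CPM in homozygous leaves and 27.5 ± 0.949 CPM in wild-type leaves (adjusted p = 0.85 by edgeR).

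Heterozygous leaves gave 0 calls among the 12 by edgeR and by DESeq2, with 1 at an unadjusted p under 0.05, where 0.145% of all genes were called. Between homozygous and heterozygous leaves, 2 of the 12 rose, GRF13 (log2 0.35 ± 0.09, adjusted p = 0.040) and GRF11 (log2 0.55 ± 0.14, adjusted p = 0.044, both by edgeR), where 1.64% of all genes rose. Both calls were lost with DESeq2 (0.088 for GRF13, 0.27 for GRF11), with library totals (0.053 for GRF13, 0.054 for GRF11), and without homozygous library 1 or 2 or heterozygous library 1.

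In kn1-e1 tassels, where 2.34% of all genes rose and 5.55% fell, 1 of the 12 rose and 1 fell. GRF13 had 39.3 ± 1.93 CPM in kn1-e1 tassels and 31.2 ± 1.51 CPM in sibling tassels (log2 0.34 ± 0.06, adjusted p = 0.0035 by edgeR). GRF1 (GRMZM2G178261) had 133 ± 4.07 CPM in kn1-e1 tassels and 156 ± 5.71 CPM in sibling tassels (log2 -0.22 ± 0.04, adjusted p = 0.0061 by edgeR). Both calls held under every alternative run. GRF13 was thus higher both in homozygous Kn1-N leaves and in kn1-e1 tassels. In ears, where 10.4% of all genes fell, GRF9 (GRMZM2G124566) fell, with 17.2 ± 0.973 CPM in kn1-e1 and 21.4 ± 0.988 CPM in siblings (log2 -0.31 ± 0.09, adjusted p = 0.034 by edgeR); the call was lost with DESeq2 (0.21), library totals (0.071), all 20 libraries (0.064) and without 3 of the 4 ear libraries (kn1-e1 library 1, 0.070; sibling library 1, 0.12; sibling library 2, 0.27). In ears 1 of the 17 genes had a log2 fold change above 0 (5 with library totals); the list's median was -0.11 (-0.05 with library totals), and the median over all genes was 0.009. In SAMs the family had 0 calls by edgeR and by DESeq2, and 2 of 17 at an unadjusted p under 0.05. Between control tissues, 9 of the 12 were higher in sibling SAMs than in wild-type leaves and 1 was lower, GRF9 (GRMZM2G124566; log2 -0.67 ± 0.14), where 35.6% of all genes were higher and 37.3% lower. The name GRF9 also belongs to GRMZM5G893117, which was higher in sibling SAMs (log2 2.05 ± 0.23, adjusted p = 5.2e-08 by edgeR). Likewise, GRF1 also names GRMZM2G034876, which did not pass in kn1-e1 tassels (log2 -0.21 ± 0.06, adjusted p = 0.066 by edgeR).

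**Figure D4:**
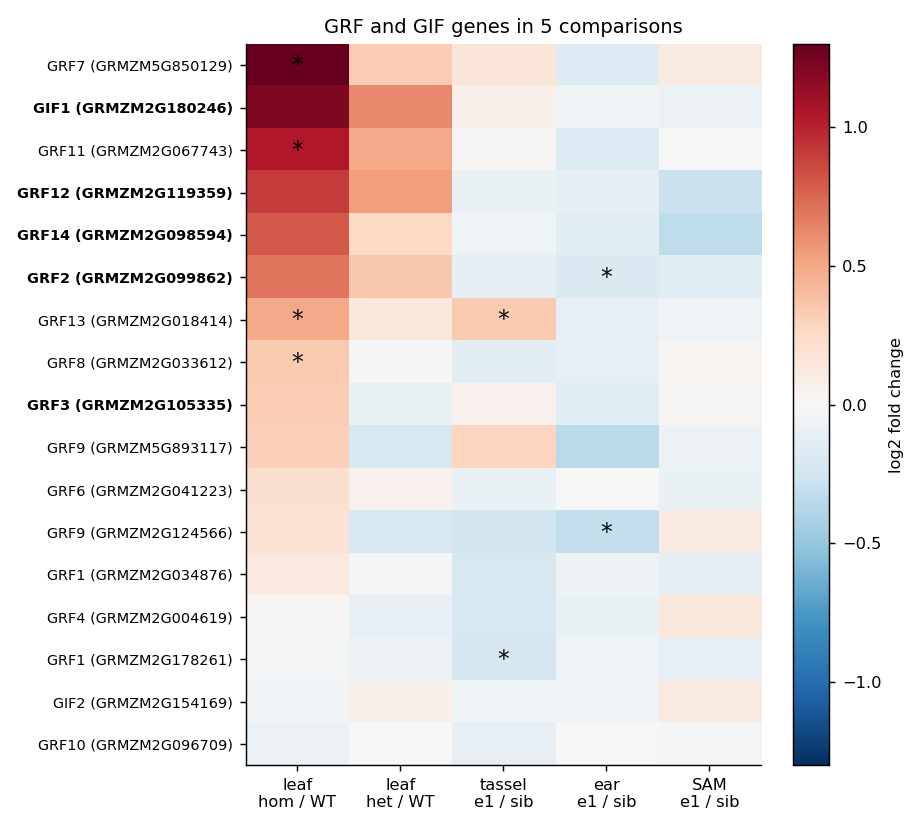
Log2 fold change (colour) of the 17 tested GRF and GIF genes (rows; the 5 genes in bold) in homozygous and heterozygous leaf over wild type, and in kn1-e1 tassel, ear and SAM over sibling. Stars mark an adjusted p under 0.05, which was not read for the 5 genes in leaf. The first column runs up to 1.29 (GRF7), while values in the ear column lie at or below about 0.

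GIF1 lies near kn1 in the reference assembly, with 41 reference genes between them, 17 of which have a row in the count table. The labels do not say how much chromosome came with each allele, so linked sequence and KN1 activity cannot be told apart in this stretch. In homozygous leaves, 2 of the 14 tested genes between kn1 and GIF1 rose and 3 fell, and of the 10 tested genes after GIF1, 0 rose and 4 fell, beside 9.16% of all genes that rose and 9.59% that fell. The nearest tested neighbours did not pass by edgeR in homozygous leaves. GRMZM2G396114 on the kn1 side had 47.4 CPM in homozygous leaves and 54.8 CPM in wild-type leaves (log2 -0.19 ± 0.07, adjusted p = 0.065 by edgeR). With library totals it had log2 -0.23 and adjusted p = 0.034 by edgeR. In ears it was called lower, at very low levels of 0.263 CPM in kn1-e1 and 0.873 CPM in siblings (log2 -1.69 ± 0.49, adjusted p = 0.028 by edgeR). GRMZM2G108115 on the other side had 21.3 CPM in homozygous leaves and 21.7 CPM in wild-type leaves (log2 -0.01 ± 0.10, adjusted p = 0.94 by edgeR). GRF1 (GRMZM2G178261), lower in kn1-e1 tassels, also lies between kn1 and GIF1. In the stretch, 4 genes named after their values were seen (GRMZM2G179906 and GRMZM2G090124 between kn1 and GIF1, GRMZM2G147849 and GRMZM2G416388 past GIF1) were lower both in homozygous leaves and in kn1-e1 tassels, 4 of 20 genes tested in both (20%) against 0.987% of 20166 genes. In homozygous leaves and kn1-e1 ears, 2 of 23 (8.70%) were lower in both, against 1.33% of 20284 genes. These counts take only genes lower in both, and the share of genes higher in both is not given here. GRMZM2G141472, between kn1 and GIF1 and also named after its values were seen, went the other way. It was higher in homozygous leaves (log2 0.64 ± 0.12, adjusted p = 0.0023 by edgeR) and in kn1-e1 tassels (log2 0.21 ± 0.06, adjusted p = 0.038 by edgeR). GRMZM2G179906 had 27.5 CPM in homozygous and 52.6 CPM in wild-type leaves (log2 -0.93 ± 0.08, adjusted p = 6.1e-06 by edgeR), and 24.4 CPM in kn1-e1 and 38.6 CPM in sibling tassels (log2 -0.65 ± 0.08, adjusted p = 0.00029 by edgeR). The tassel call of GRMZM2G090124 (adjusted p = 0.047 by edgeR) was lost with DESeq2 (0.19), library totals (0.054) and without every tassel library but kn1-e1 library 2 (0.080 to 0.18).

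**Figure D5:**
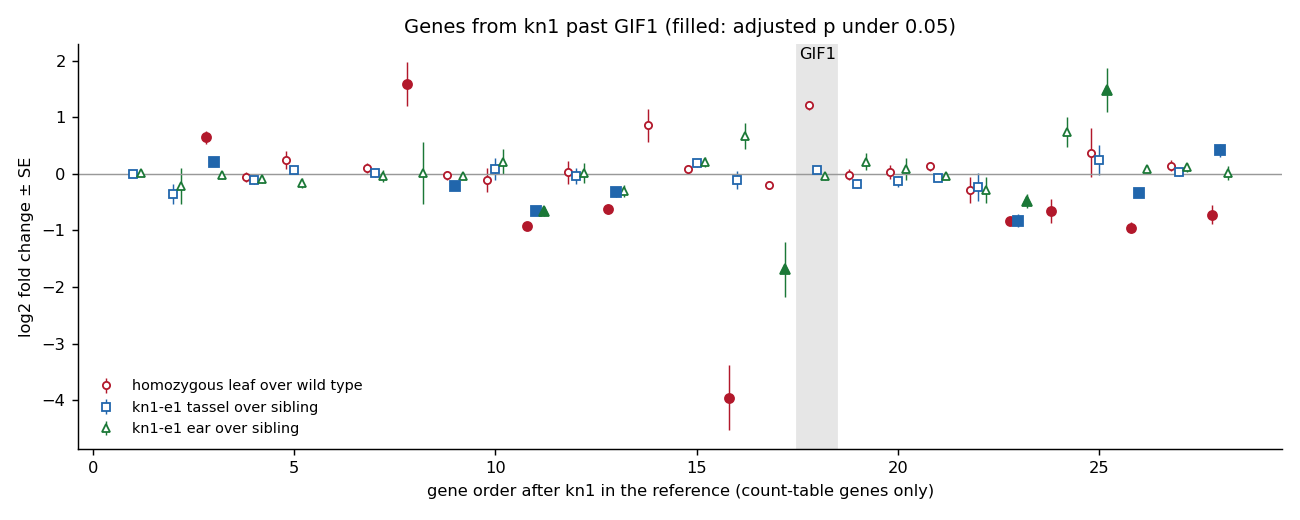
Log2 fold change ± SE (vertical axis) of the genes from kn1 past GIF1, in reference order (horizontal axis, genes with a row in the count table; kn1 itself left out), for homozygous leaf over wild type, kn1-e1 tassel over sibling and kn1-e1 ear over sibling. Filled points passed at an adjusted p under 0.05, and GIF1 in leaf (log2 1.21) is drawn unfilled because it was not tested there.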

How the data were processed

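The authors deposited 1 table of raw counts, with a column per library, as its header and whole-number values show. Per the labels' protocols, Trizol RNA went into a TruSeq RNA kit, which keeps no strand; none of the 5 genes overlaps another gene of the reference. Per the submitters' processing notes, CASAVA 1.8, TopHat 1.2.0, HTSeq and DESeq 1.4.1 were used; their roles, the build and the annotation are not given in the sources used here. Reads shared by similar GRF genes may have been split or dropped. Names and gene order came from Zm-B73-REFERENCE-NAM-5.0 (18046 table rows matched, 45.5%); no sequence or coordinates were used.

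Counts were fitted with edgeR 4.0.16 in R 4.3.3 (quasi-likelihood F test, TMM factors, genes kept by filterByExpr with min.count 10 and min.total.count 15), separately for leaf, tassel, ear and SAM, and tested on simulated data. Calls are at a Benjamini-Hochberg adjusted p under 0.05. Standard errors came from the F statistic and fold change. DESeq2 1.42.0, library totals, other filters, a replicate block, all 20 libraries together and leaving out each library were tried. Named genes were the 5, kn1, up to 3 called GRF or GIF genes per comparison by smallest p, the genes most like each of the 5 and the nearest tested neighbours of GIF1. The members and lists were chosen with earlier results of these data known. The design calls the replicates biological; replicates' counts differed beyond sampling noise in every group. The result of the meristem marker list is not reported here.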

Additional observations from a re-analysis of the deposited data

How the results depend on the processing

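Alternatives were DESeq2, library totals, 2 other filters, a replicate block, 1 fit of all 20 libraries and leaving out each library; where this left 1 library in a group, it was assumed to vary like the others. Library totals moved the median of all genes by at most 0.056 (log2, in ear). Under them GIF1 reversed in ear (0.0089), as did the kn1-e1 effect of GRF12 in ear against tassel (0.0053) and of GRF2 in SAM against ear (-0.022), GIF1 in homozygous leaf was 1.17, and the GRF3 difference between tassel and SAM lost its call (0.23). GRF2 in ear lost its call with DESeq2 (-0.19), library totals (-0.13) and all 20 libraries (-0.20).

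Leaving out 1 library gave -0.038 to 0.15 for GRF3 and -0.16 to -0.073 for GRF2 in tassel; in ear, -0.14 to 0.048 for GIF1, -0.28 to -0.10 for GRF2, -0.19 to -0.10 for GRF3, -0.19 to -0.057 for GRF12 and -0.22 to -0.076 for GRF14; in SAM, -0.10 to -0.037 for GIF1, -0.14 to 0.20 for GRF3, -0.33 to -0.22 for GRF12 and -0.45 to -0.20 for GRF14; in heterozygous leaf, 0.23 to 0.47 for GRF2, -0.14 to -0.046 for GRF3 and 0.079 to 0.42 for GRF14; and -0.079 to 0.044 for GRMZM2G108115 in homozygous leaf.
The cause of these changes was not tested.

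All-gene counts called were 1668 in tassel, 3955 in ear, 34 in SAM, and 4139, 32 and 1049 in homozygous, heterozygous and homozygous against heterozygous leaf. DESeq2 gave 1846 in ear, 2397 in homozygous leaf and 612 in homozygous against heterozygous leaf. In SAM no filter gave 111 and all 20 libraries 64. Leaving out 1 library gave 884 to 2228 in tassel, 1167 to 5898 in ear, 48 to 1746 in SAM, 1061 to 2197 in homozygous leaf, 8 to 628 in heterozygous leaf and 166 to 3105 between homozygous and heterozygous leaf. GRF and GIF genes called, over all 17 and so with the 5 members, whose leaf calls are not read as results, were 0 in ear with DESeq2, library totals and all 20 libraries (against 2), 2 in heterozygous leaf with all 20 libraries (against 1) and 2 between homozygous and heterozygous leaf with DESeq2 (against 6). Leaving out 1 library gave 2 to 5 in tassel, 0 to 7 in ear, 0 to 2 in SAM, 0 to 3 in heterozygous leaf and 1 to 9 between homozygous and heterozygous leaf.

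Same-numbered libraries deviated together in part in tassel, where r was 0.15, 0.21 and 0.02 for numbers 1, 2 and 3. Between numbers 1 and 2 it was -0.17, while kn1-e1 library 3 was nearer sibling library 1 (0.06). The main tassel fit did not use this pairing. With the block, the SE of GRF3 in tassel was 0.039, against 0.094 without, and GRF3 did not pass (adjusted p = 0.48 by edgeR). In the other tissues r was -0.05 in ear, -0.29 in SAM and -0.06 to 0.17 in leaf. With the replicate number as a block, 72 genes were called in SAM, 1940 in tassel, 4766 in ear, 4424 in homozygous leaf, 46 in heterozygous leaf and 1483 between homozygous and heterozygous leaf. Those in heterozygous leaf held 2 GRF or GIF genes, a count that takes in the 5 members, whose leaf calls are not read as results. In ear GRF2 kept its call (-0.19, adjusted p = 0.013 by edgeR). With numbers crossed in SAM, chosen after seeing the data, 105 genes were called.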

Other observations

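The make-up of the 4 GRFs' summed counts differed between tissues. GRF12 took 35.4 to 36.9% of them in kn1-e1 SAMs and 37.5 to 40.2% in sibling SAMs, and 17.3 to 23.1% in every leaf, tassel and ear library. GRF2 took 40.7 to 41.4% in kn1-e1 tassels and 41.6 to 44.1% in sibling tassels, and 27.7 to 28.8% in kn1-e1 SAMs and 27.1 to 28.0% in sibling SAMs. In leaf, GRF3 took 34.6 to 34.7% in wild type, 25.7 to 29.4% in heterozygotes and 27.9 to 28.2% in homozygotes. These shares compare libraries only, since transcript lengths differ between genes.

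Some other members of the family had levels far lower in leaf than in the SAM. GRF11 (GRMZM2G067743) averaged 37.6 CPM in sibling SAMs and 3.92 CPM in wild-type leaves (log2 3.26 ± 0.12, adjusted p = 8.9e-17 by edgeR). GRF7 (GRMZM5G850129) averaged 14.8 CPM in sibling SAMs and 1.29 CPM in wild-type leaves (log2 3.53 ± 0.19, adjusted p = 8.9e-14 by edgeR).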
